A study of Rattus norvegicus with 12 samples.

Results

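In 807 promoter regions of the rat kidney, all 3 arrays of offspring fed the high protein diet after a low protein pregnancy (LP-HP) lay above all 9 arrays of the other diet groups. They were chosen from 15396 regions on the autosomes, so that 5.24% of the regions met the rule. A region was a run of array probes in which no start lay more than 1000 bp from the next, with at least 3 probes, and its value on an array was the mean of the log2 values that the authors deposited for its probes. The rule used these values, and the distance between LP-HP and the other groups is therefore described here without a test.

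The samples were kidney DNA of male SHRSP rats (the stroke-prone spontaneously hypertensive strain, an inbred model of high blood pressure) at 6 weeks of age, and all groups shared strain, sex, tissue and age. Dams received a control diet (CN, 20% casein) or a low protein diet (LP, 9% casein) while pregnant, all dams and pups then received CN until the pups were separated, and the pups finally received CN, LP or a high protein diet (HP, 40% casein). The group names give the maternal diet and then the offspring diet: CN-CN, LP-CN, LP-LP and LP-HP, with 3 arrays each, so the LP-HP offspring differed from LP-CN and LP-LP in the last diet and from CN-CN in both diets. No source says whether an array held DNA of 1 animal or of several, and HP after a CN pregnancy was not analysed here. Whole kidney holds many cell types, and a change in their proportions cannot be told apart from a change within cells.

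Methylation of cytosine in promoters is a stable mark that is copied at cell division, and dense methylation of a promoter usually goes with low transcription. The methyl groups come from one-carbon metabolism, which depends on amino acids and vitamins of the diet. In MeDIP an antibody against 5-methylcytosine captures methylated fragments, and on these arrays captured DNA was labelled with Cy5 and input DNA with Cy3, so that a higher log2(Cy5/Cy3) means more captured DNA around a probe. The measure is relative to the rest of the array and is not a percentage of methylated cytosines.

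The arrays held 172669 probes of 45 to 60 bases on build rn4. The files give positions and no gene names, and regions are therefore named by chromosome, start and end on that build. Median intensities per array were 95 to 166 in Cy3 and 94 to 153 in Cy5, and 170 to 16515 spots per array carried an outlier flag, with the highest number in CN-CN replicate 3. The arrays were read in 5 scans. LP-HP replicate 7 formed scan 3, and LP-HP replicates 8 and 9 shared scan 4, on the same day, with LP-LP replicate 10. No CN-CN or LP-CN array was scanned on that day, and LP-LP replicates 11 and 12 were scanned on another, so that diet and scan cannot be told apart between LP-HP and those 8 arrays.

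The count of 807 can be read beside the same rule for other groups and for the opposite order. All LP-HP arrays lay below the other 9 in 618 regions (4.01%). For CN-CN, 372 regions (2.42%) had all 3 arrays highest and 179 (1.16%) had them lowest. LP-CN was highest in 399 (2.59%) and lowest in 677 (4.4%). LP-LP, whose arrays came from 2 scans on different days, was highest in 65 (0.422%) and lowest in 91 (0.591%). LP-HP thus had the most regions in the upper position, and LP-CN had the most in the lower one.

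In the 807 regions the deposited values of LP-HP exceeded the mean of the other 9 arrays by a median of 0.24 on the log2 scale (quartiles 0.19 and 0.30), where the median over all regions was 0.01 (quartiles -0.10 and 0.11). The median distance was 0.22 to CN-CN, 0.29 to LP-CN and 0.22 to LP-LP. On these values LP-CN was the group farthest from LP-HP, and it was the lowest of the 4 group means in 535 regions, against 137 for CN-CN and 135 for LP-LP. LP-LP replicates 11 and 12 without replicate 10 lay as far, at 0.29. On quantile normalized scanner signals the distances to CN-CN, LP-CN and LP-LP were 0.20, 0.26 and 0.15. After loess normalization within each array they were 0.15, 0.13 and 0.12, with CN-CN the farthest.

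By array, the median over the 807 regions was 0.24, 0.23 and 0.24 in LP-HP replicates 7, 8 and 9. It was 0.03, 0.04 and -0.03 in CN-CN replicates 1, 2 and 3, and -0.08, -0.05 and -0.05 in LP-CN replicates 4, 5 and 6. In LP-LP it was 0.14 in replicate 10, -0.06 in replicate 11 and -0.03 in replicate 12. The LP-HP arrays were close to each other, and replicate 10 stood between them and all other arrays. Over the same regions the SD within a group had a median of 0.04 in LP-HP, 0.07 in CN-CN, 0.07 in LP-CN and 0.12 in LP-LP (n = 3 each), where over all regions these medians were 0.06, 0.08, 0.07 and 0.10. The rule favours regions in which the LP-HP arrays lie close together, so their smaller SD follows in part from the selection. Replicate 7 was the highest LP-HP array in 354 regions and replicate 8 was the lowest in 348, so no single LP-HP array set the upper or the lower end everywhere.

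**Figure D1:**
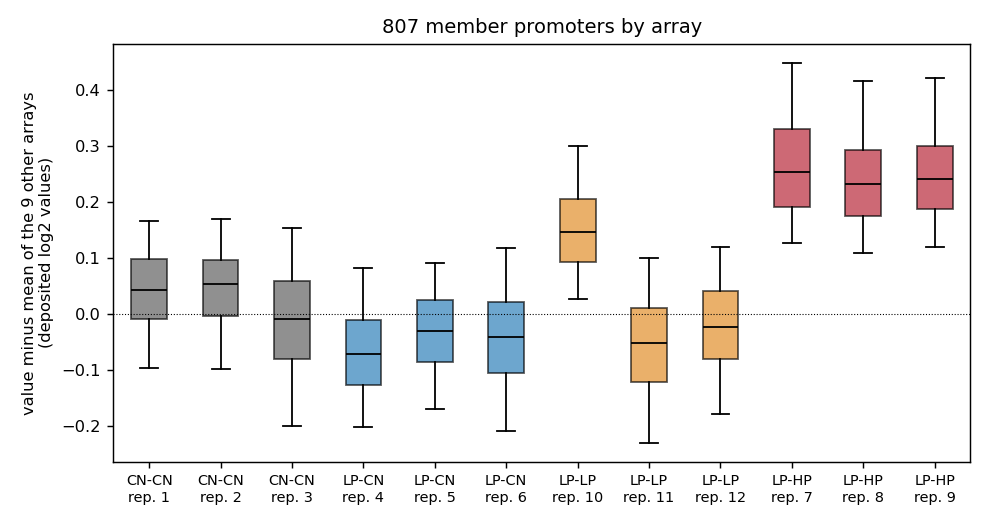
Value of each of the 807 regions on each array (x axis) minus its mean over the 9 arrays outside LP-HP (y axis, deposited log2 values). Boxes show the quartiles, the line is the median and the whiskers reach the 5th and 95th percentiles of the regions. The medians are 0.25, 0.23 and 0.24 in LP-HP, 0.15 in LP-LP replicate 10, and between -0.07 and 0.05 on the other 8 arrays.

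LP-LP replicate 10, the array that shared a scan with LP-HP replicates 8 and 9, was the nearest to LP-HP in most of the regions. It was the highest of the 9 other arrays in 534 of 807 (66.2%), compared with 19.7% of all regions. Its value lay a median of 64.5% of the way from the mean of the other 8 arrays to the LP-HP mean (quartiles 50.9% and 76.8%). The distance from LP-HP was 0.09 for replicate 10 and 0.29 for replicates 11 and 12 of the same diet group. Replicate 10 exceeded replicates 11 and 12 by a median of 0.18 and lay above them in 768 regions (95.2%), whereas over all regions the median was below 0.01 and 50.8% lay above. Inside scan 4, LP-HP replicates 8 and 9 exceeded LP-LP replicate 10 by a median of 0.08 (quartiles 0.05 and 0.12). The rule itself required both to lie above replicate 10. Over all regions the same distance had a median of 0.0048 (quartiles -0.05 and 0.06), and 52.2% lay above. The distance inside scan 4 is the only LP-HP distance that holds the scan constant. It is smaller than the pooled distance to LP-LP and rests on 1 LP-LP array. The part of the scan in the distance to the other 8 arrays was not tested.

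In the remaining 273 regions replicate 10 was not above the other 8 arrays. Here LP-HP exceeded those 8 by a median of 0.21, compared with 0.29 in the 534 regions where replicate 10 came next. Without replicate 10 in the rule, 1901 regions would have met it. The order of the other groups in the 807 regions also turned on that array. CN-CN was the next group below LP-HP in 372 regions and LP-LP in 339. With replicates 11 and 12 as the only LP-LP arrays, CN-CN was next in 495 and LP-LP in 190, and LP-CN was lowest in 360 and LP-LP in 348.

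The gap, taken as the lowest LP-HP array minus the highest of the other 9, was small in most regions. Its median was 0.0309 (quartiles 0.0129 and 0.0618) and its largest value 0.231. It exceeded 0.1 in 62 regions and was under 0.01 in 150. A further 160 regions missed the rule by less than 0.01, so membership near the threshold was a matter of very small differences.

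**Figure D2:**
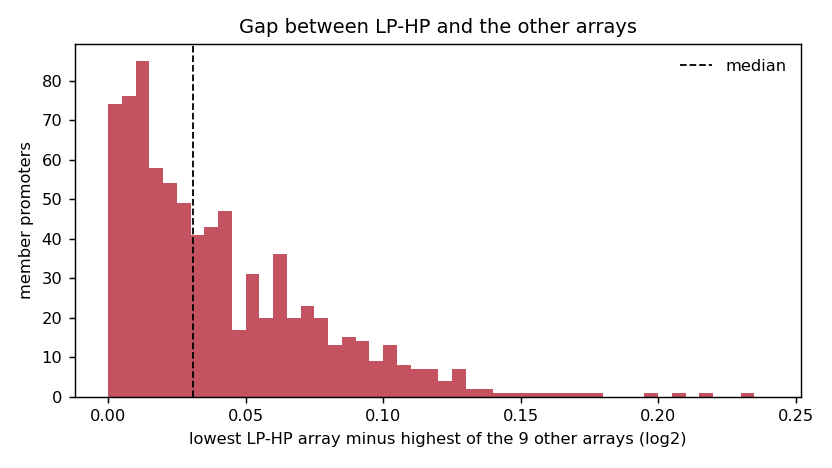
Number of the 807 regions (y axis) by gap, the lowest LP-HP array minus the highest of the 9 other arrays (x axis, log2). The dashed line is the median of 0.0309, and 62 regions lie beyond 0.1.

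Regions just inside and just outside the threshold show this. At chr8:74603439-74605089 (8 probes) the LP-HP arrays were at 0.61, 0.43 and 0.38 and LP-LP replicate 10 at 0.38, with a gap of 7e-06. At chr11:69806983-69808746 (11 probes) the LP-HP arrays were at 0.05, -0.01 and 0.02, and the gap was 0.00011 to CN-CN replicate 1 at -0.01. Just outside were chr16:69360358-69362068, with LP-HP at 0.47, 0.51 and 0.47 and replicate 10 at 0.47, and chr14:44814597-44816144, with LP-HP at 0.75, 0.67 and 0.67 and replicate 10 at 0.67. In 3 of these 4 regions, LP-LP replicate 10 set the limit.

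The widest gaps were examined array by array in regions with strong signal, that is with at least 3 probes and at least 80% of the probes well above background in both dyes on all arrays. This filter was met by 329 of the 807 regions. The values below are deposited log2 values in the order of the replicate numbers.

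The widest gap among them (0.206) was at chr5:148718185-148719524 (6 probes over 1340 bp). The LP-HP arrays were at 0.34, 0.26 and 0.29, the CN-CN arrays at 0.06, -0.0019 and -0.10, the LP-CN arrays at -0.24, -0.14 and -0.03, and the LP-LP arrays at 0.03, -0.43 and -0.11. CN-CN replicate 1 was the highest array outside LP-HP, and replicate 10 did not come next here. The group means were 0.30 ± 0.04 in LP-HP, -0.02 ± 0.08 in CN-CN, -0.14 ± 0.10 in LP-CN and -0.17 ± 0.24 in LP-LP (SD, n = 3 each). On the scanner log2 ratio before smoothing, the LP-HP mean exceeded the mean of the other arrays at 6 of 6 probes, by 0.06 to 0.77. At the probe with the smallest difference LP-LP (mean 1.31) lay above LP-HP (1.11). All LP-HP arrays with a value were highest at 3 probes, of which the probe with 0.77 lacked a value on 3 arrays.

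Further along the same chromosome, chr5:148851077-148851764 (4 probes over 688 bp) had the next gap (0.20). LP-HP was at 0.80, 0.58 and 0.65, CN-CN at 0.37, 0.35 and -0.04, LP-CN at 0.14, 0.27 and 0.21, and LP-LP at 0.38, 0.20 and 0.27. The outlying array here was CN-CN replicate 3, far below its group, and replicate 10 was only slightly above CN-CN replicate 1.

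The arrays of each group other than LP-LP were closer together at chr16:19215464-19216867 (9 probes, gap 0.178). LP-HP was at 0.59, 0.56 and 0.60, CN-CN at 0.33, 0.30 and 0.28, LP-CN at 0.19, 0.21 and 0.13, and LP-LP at 0.39, 0.21 and 0.34. Every LP-CN array lay below every CN-CN array, and the spread in LP-HP was 0.02 (SD, n = 3).

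At chr4:117267754-117269393 (11 probes, gap 0.175) LP-HP was at 0.40, 0.48 and 0.47, CN-CN at -0.01, 0.0047 and 0.18, LP-CN at -0.06, 0.07 and 0.01, and LP-LP at 0.22, -0.30 and -0.17. The LP-LP arrays were split, with replicate 10 above and replicates 11 and 12 below all arrays of CN-CN and LP-CN.

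Replicate 10 also stood apart from its group at chr1:209327432-209328861 (9 probes, gap 0.165). LP-LP was at 0.20, -0.37 and -0.21 there, beside LP-HP at 0.37, 0.36 and 0.40, CN-CN at 0.06, 0.08 and 0.05 and LP-CN at -0.28, -0.13 and -0.13. Replicates 11 and 12 lay below every CN-CN array and within or below the range of LP-CN.

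At chr10:55959768-55961450 (10 probes, gap 0.152) LP-HP was at 0.49, 0.42 and 0.47, CN-CN at 0.21, 0.13 and 0.17, LP-CN at 0.03, 0.04 and -0.14, and LP-LP at 0.27, 0.03 and 0.05. Replicate 10 again came next to LP-HP, and LP-CN was the lowest group.

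A pair of regions on chromosome 3 completed the set. At chr3:118831800-118833426 (9 probes, gap 0.144) LP-HP was at 0.53, 0.44 and 0.46, CN-CN at 0.30, 0.27 and 0.19, LP-CN at 0.18, 0.14 and 0.22, and LP-LP at 0.29, 0.01 and 0.19. At chr3:3886131-3887764 (11 probes, gap 0.129) LP-HP was at 0.35, 0.29 and 0.32, CN-CN at -0.03, 0.01 and -0.12, LP-CN at -0.11, -0.14 and -0.11, and LP-LP at 0.17, -0.08 and -0.04. The groups other than LP-HP overlapped in the first, and in the second replicate 10 was the only array outside LP-HP that stood clearly above 0.

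**Figure D3:**
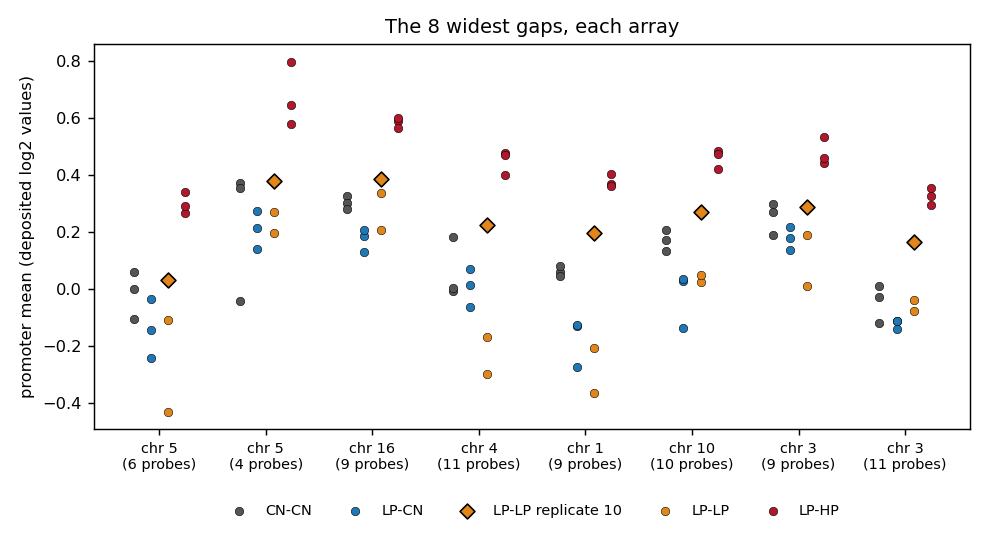
Deposited log2 value (y axis) of each array in the 8 regions with the widest gaps and strong signal (x axis, by chromosome and number of probes). Points are arrays, coloured by group, and the diamond is LP-LP replicate 10. The red LP-HP points lie above all others in each region by the rule, with gaps of 0.206 down to 0.129.

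The level at which LP-HP stood above the others differed widely between regions. The highest LP-HP means were at chr8:112801813-112803192 (0.94 ± 0.03), chr16:19447114-19448748 (0.89 ± 0.03) and chr5:131017181-131018942 (0.89 ± 0.04; SD, n = 3). In all 3 the other groups also had high means, of 0.61 to 0.80, so that these regions were rich in captured DNA on every diet. The lowest LP-HP means with strong signal were at chr1:35522409-35524053 (-0.43 ± 0.05), chr10:88436292-88437947 (-0.39 ± 0.01) and chr3:16387957-16389198 (-0.36 ± 0.04). At chr3:16387957-16389198 (6 probes) LP-HP was at -0.36, -0.39 and -0.32, CN-CN at -0.57, -0.53 and -0.50, LP-CN at -0.84, -0.92 and -0.91, and LP-LP at -0.49, -0.95 and -0.86. All groups were below the array centre there, LP-CN lay entirely below CN-CN, and LP-LP overlapped both.

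Across the 807 regions, the mean level of the 9 other arrays had a median of -0.01 (quartiles -0.28 and 0.21), close to the -0.02 (quartiles -0.36 and 0.24) of all regions. In 5 bins of equal size from low to high level, 3.57%, 5.52%, 7.08%, 5.59% and 4.45% of the regions met the rule. On these deposited values the middle of the range held the largest share, and the lowest bin the smallest. On scanner signals after loess normalization within each array, the shares in the same bins were 0.519%, 1.72%, 4.61%, 6.63% and 8.41%. They rose with level there, so that this order depended on the normalization.

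Among the regions with strong signal, the 3 with the most probes had distances of 0.18 to 0.19, where the median of the 807 regions was 0.24. Those with the widest gaps (0.28 to 0.46) were picked by the gap, which favours a large distance. At chr3:142328073-142331387 (19 probes) LP-HP was at 0.07, 0.13 and 0.11, CN-CN at -0.01, 0.05 and -0.09, LP-CN at -0.20, -0.21 and -0.19, and LP-LP at 0.01, -0.12 and -0.06. LP-CN was lowest without overlap with CN-CN. The mean scanner log2 ratio of LP-HP exceeded the mean of the other arrays at 12 of its 19 probes, with differences of -0.41 to 0.88 and a median of 0.05. All LP-HP arrays were highest at 3 probes. The region mean thus rested on part of the probes, and probes with LP-HP higher and lower lay side by side. At chr7:67279272-67282486 (18 probes) LP-HP exceeded the other arrays by 0.19, and at chr7:114589455-114591881 (16 probes) by 0.18.

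**Figure D4:**
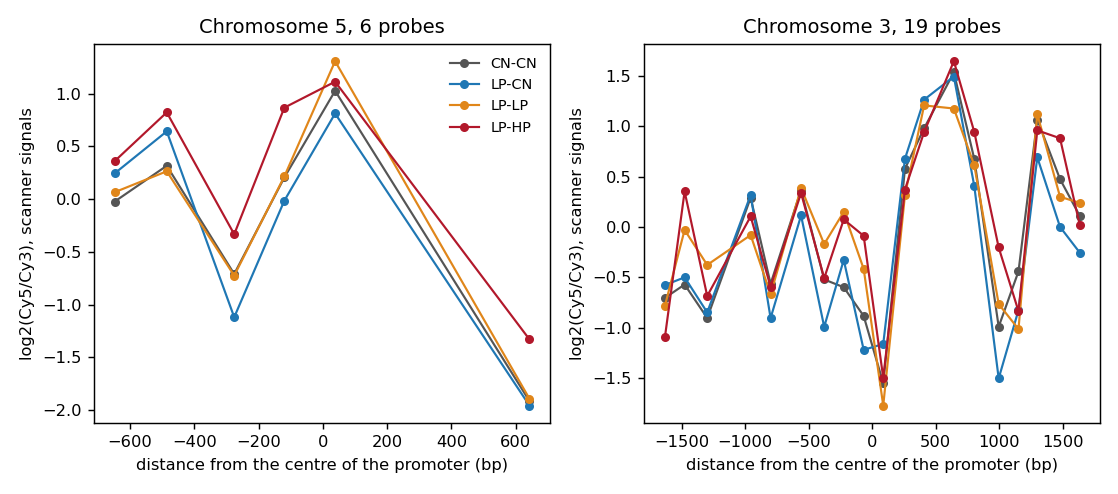
Mean log2(Cy5/Cy3) of each diet group (y axis, scanner signals before smoothing, means of up to 3 arrays) at each probe, by distance from the centre of the region (x axis, bp). Left, the region with the widest gap among those with strong signal, where LP-HP exceeds the mean of the other arrays at 6 of 6 probes. Right, the region with the most probes among those with strong signal, where it does so at 12 of 19.

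Part of the probes also carried the difference over the whole set of 807 regions. The rule selected regions for a high mean over these probes, so larger shares than over all regions follow in part from the selection. Of their 8391 probes, 68.2% had a higher mean scanner log2 ratio in LP-HP than the mean of the other arrays, where 46.6% did over all regions. All 3 LP-HP arrays were highest at 12.5% of the probes without missing spots, compared with 5.01% over all regions. In a typical region 70% of the probes were higher in LP-HP (median), and in 22 regions (2.73%) all of them were, compared with 45.5% and 0.403% over all regions. In regions of 1400 to 2000 bp the median probe difference was 0.18 within 200 bp of the centre, and 0.22, 0.21, 0.22 and 0.21 in the next steps of 200 bp outward. The difference was not concentrated at the centre or the edges of the regions.

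Both dyes moved in these regions. On the scanner signals, Cy5 (captured DNA) was higher in LP-HP than in the other arrays by a median of 0.21 on the log2 scale and in 752 regions (93.2%), and Cy3 (input DNA) differed by a median of -0.12 and was higher in 176 (21.8%). Over all regions the medians were 0.04 and -0.03, with 59.2% and 42.1% higher. A higher Cy5 together with a lower Cy3 was found in 577 regions (71.5%), and in 30.5% of all regions. The rule selected a high ratio of these dyes in LP-HP. The departures of both dyes from all regions therefore follow in part from the selection. The Cy5 difference was the larger in size in 495 of the 807. Input DNA is not selected by the antibody, and the part of the input channel in the log2 ratio was not tested.

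LP-LP replicate 10 had the same dye pattern as the LP-HP arrays. Relative to the mean of the arrays outside LP-HP, its Cy5 value had a median of 0.17, compared with 0.20 to 0.22 in LP-HP, and its Cy3 value a median of -0.08, compared with -0.14 to -0.08 in LP-HP. In LP-LP replicates 11 and 12 the Cy3 medians were 0.02 and -0.02.

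The 807 regions had shorter probes than the rest. Probe length was not used by the rule, and on this array probes range from 45 to 60 bases. The mean probe length of a region had a median of 47 bases in the 807 regions, 48.3 in all regions and 50.2 in the 618 regions where LP-HP was lowest. In 5 bins of about equal size from short to long probes, 8.48%, 7.54%, 4.82%, 3.76% and 1.57% of the regions had LP-HP highest, and 1.26%, 2.69%, 3.43%, 5.10% and 7.63% had it lowest. The shares ran in opposite order, and the median difference between LP-HP and the other arrays over all regions of a bin went from 0.08 to -0.06. LP-LP replicate 10 minus replicates 11 and 12 of the same diet went from 0.07 in the shortest bin to -0.03 in the longest (-0.04 in the bin before it). The base composition of the regions was not analysed here, and the part of probe length in the selection was not tested.

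**Figure D5:**
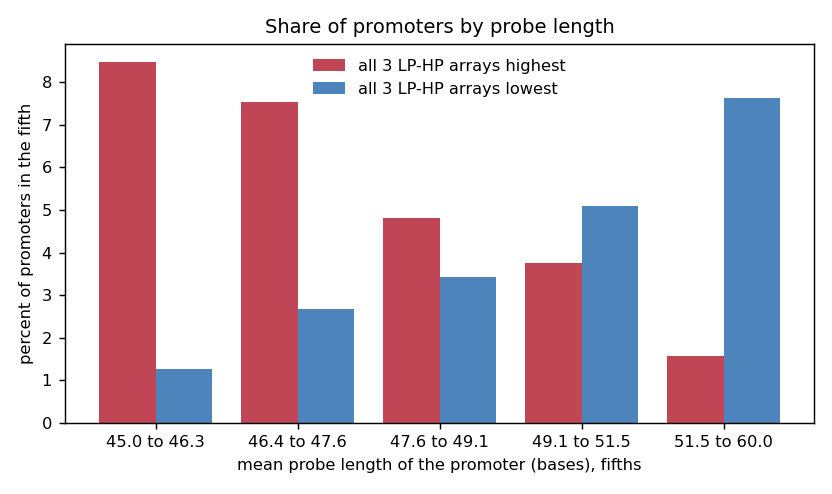
Percentage of regions in each of 5 bins of mean probe length (x axis, bases) in which all 3 LP-HP arrays were above (red) or below (blue) the 9 others (y axis). The red share goes from 8.48% to 1.57% and the blue share from 1.26% to 7.63% as probes become longer.

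The selected regions with the longest probes and strong signal also had LP-CN as the lowest group. At chr15:103697971-103699582 (10 probes of 51.8 bases on average) LP-HP was at 0.08, 0.15 and 0.15, CN-CN at -0.03, 0.05 and -0.18, LP-CN at -0.30, -0.11 and -0.30, and LP-LP at -0.02, -0.10 and -0.04. CN-CN replicate 2 came next to LP-HP there. At chr18:29095976-29097548 (8 probes of 51.1 bases) the means were -0.08 ± 0.05 in LP-HP, -0.16 ± 0.03 in CN-CN, -0.28 ± 0.05 in LP-CN and -0.26 ± 0.11 in LP-LP (SD, n = 3). The other region of this kind was chr3:16387957-16389198, given above, with probes of 53.2 bases.

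In number of probes (median 10) and span (median 1658 bp) the 807 regions were like all regions (10 probes and 1664 bp). Signal was somewhat stronger, since a median of 75% of their probes were well above background on all arrays, compared with 63.6% in all regions and 50% where LP-HP was lowest. Regions longer than 5000 bp, which can hold the promoters of neighbouring genes, numbered 8 of 175 such regions.

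The regions were spread over all 20 autosomes. The share of regions that met the rule was between 4.12% on chromosome 8 (39 of 946) and 7.38% on chromosome 20 (35 of 474), and it was 6.78% on chromosome 12 and 6.76% on chromosome 10. The median probe lengths of these chromosomes were 48.8 bases on chromosome 8, 47.3 on 20, 47.2 on 12 and 47.7 on 10, but chromosome 19, with the shortest probes (47.2), had 5.01% and chromosome 7 (47.7) had 4.93%. The next region along the chromosome was also selected in 49 cases (6.07%), close to the 5.24% of all regions, and 36 of these pairs lay within 100000 bp. The regions were thus mostly isolated.

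The values depended on how the arrays were normalized. On the scanner signals (background corrected, median centred and quantile normalized), LP-HP exceeded the other arrays by a median of 0.21 and in 806 of 807 regions, on the processed signals of the scanner software by 0.28 and in 771 (95.5%), and after loess within each array by 0.14 and in 713 (88.4%). Over all regions the LP-HP mean was the higher in 50.2%, 44.0% and 45.5% under these settings, in the same order. The 807 regions were selected for high LP-HP values on these same arrays. A higher LP-HP mean after another normalization therefore follows in part from the selection. The direction was kept in most of the 807 regions, but the separation of all arrays was not. All LP-HP arrays were still highest in 495 (61.3%), 303 (37.5%) and 275 (34.1%) of the 807, and 138 regions met the rule in all 4 sets of values. The total number meeting the rule changed little, at 766, 677 and 674, so that largely other regions took their place under the last 2 settings.

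The remaining comparisons did not involve LP-HP and were tested with limma on the region means of the scanner log2 ratio, with adjustment over all 15396 regions. The rule put an upper limit on each of these arrays, so that the selected regions are not a free sample for these comparisons either. They asked whether a region that was high on HP already differed after maternal restriction, or on the postnatal LP diet.

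Between LP-CN and CN-CN, which differ in the maternal diet, limma called 17 of the 807 regions lower (2.11%) and 0 higher at an adjusted p under 0.05, where 2.25% of all regions were lower and 1.05% higher. At an unadjusted p under 0.05 there were 181 (22.4%, against 22.1% of all regions). The share lower and the share at an unadjusted p were close to those of all regions. The median difference was -0.06, compared with -0.02 over all regions. After loess within each array it was 0.03, and limma then called 0 of the 807 and 0 of all regions (7.81% and 6.62% at an unadjusted p under 0.05). CN-CN replicate 3 shared a scan with the LP-CN arrays, and with the scan as a fixed block, a fit chosen after the data were seen, 78 regions were lower (9.67%) and 4 were higher (0.496%), where 10.4% and 1.35% of all regions were.

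The largest decrease was at chr11:82552308-82553209 (5 probes, 4 of them well above background). On the scanner log2 ratio CN-CN was at 0.04, 0.03 and 0.30, LP-CN at -0.26, -0.33 and -0.50, LP-LP at 0.25, -0.14 and 0.01, and LP-HP at 0.35, 0.24 and 0.28. LP-CN lay below every other array, and LP-LP replicate 10 and CN-CN replicate 3 lay within the range of LP-HP. LP-CN minus CN-CN came to -0.48, with a standard error of 0.09 and an adjusted p of 0.0120 in limma. The adjusted p was between 0.000294 and 0.998 over 21 alternative fits, of which 17 passed the threshold. These fits include the scan as a fixed block, in which CN-CN rested on replicate 3 alone.

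At chr20:4003301-4005072 (7 probes) CN-CN was at 0.30, 0.28 and 0.27, LP-CN at -0.11, 0.02 and -0.03, LP-LP at 0.48, 0.04 and 0.26, and LP-HP at 0.66, 0.58 and 0.61. CN-CN and LP-CN did not overlap, and the LP-LP arrays spanned most of the range between LP-CN and LP-HP. LP-CN minus CN-CN came to -0.32, with a standard error of 0.08 and an adjusted p of 0.0343 in limma. It passed the threshold in 10 of 21 alternative fits, with adjusted p from 0.00696 to 0.998. Among them was the scan as a fixed block, which left replicate 3 as the only CN-CN array, and the difference there was -0.31.

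Between LP-LP and LP-CN, which differ in the postnatal diet, limma called 203 of the 807 regions higher (25.2%) and 2 lower (0.248%), where 11.8% of all regions were higher and 7.48% lower. The median difference was 0.11, compared with 0.02 over all regions. The difference between these shares was not tested, and it depended on the values used. On the deposited values, limma called 5 of the 807 higher (0.620%) and 0 lower, where 0.604% and 0.273% of all regions were called, and on the processed signals it called 0 of all regions. On the scanner log2 ratio without LP-LP replicate 10, 134 were higher (16.6%) and 16 lower (1.98%), where 12.7% and 7.55% of all regions were called. No LP-LP array shared a scan with an LP-CN array, and 5 regions were higher (0.620%) and 0 lower once limma took the scan as a random block, where 0.292% and 0.052% of all regions were, so that diet and scan cannot be told apart in this comparison. After loess within each array limma called 0 of all regions (8.80% of the 807 and 8.61% of all at an unadjusted p under 0.05), and the median difference was 0.0040.

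The largest increase was at chr13:80234090-80235720 (11 probes, all of them well above background). On the scanner log2 ratio LP-CN was at 0.01, 0.01 and -0.01, LP-LP at 0.53, 0.47 and 0.43, LP-HP at 0.59, 0.56 and 0.56, and CN-CN at 0.31, 0.37 and 0.10. On these values all LP-LP arrays, and not replicate 10 alone, were near LP-HP, and they lay above every CN-CN and LP-CN array. On the deposited values LP-HP was at 0.69, 0.68 and 0.71, LP-LP at 0.66, 0.48 and 0.45, and CN-CN at 0.49, 0.55 and 0.23. Only replicate 10 was near LP-HP there, and CN-CN replicates 1 and 2 lay above LP-LP replicates 11 and 12. This region was also among the 17 called lower in LP-CN than in CN-CN, with a difference of -0.26 (adjusted p = 0.0343 from limma). LP-LP exceeded LP-CN by 0.47, with a standard error of 0.06 and an adjusted p of 0.000483 in limma. This passed the threshold in 18 of 20 alternative fits, among them the fit without replicate 10 (0.44, adjusted p = 0.000996) and that with the scan as a random block (0.42, adjusted p = 0.0346), and did not after loess (0.18, adjusted p = 0.443).

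At chr7:111460903-111462582 (10 probes) LP-CN was at -0.43, -0.31 and -0.27, LP-LP at 0.26, -0.02 and 0.08, LP-HP at 0.32, 0.30 and 0.50, and CN-CN at 0.08, 0.13 and -0.35. CN-CN replicate 3, which was scanned with the LP-CN arrays, lay among them and apart from its own group. LP-LP exceeded LP-CN by 0.44, with a standard error of 0.10 and an adjusted p of 0.00669 in limma. With the scan as a random block it was 0.32 (adjusted p = 0.186), and after loess it was -0.05 (adjusted p = 0.858), so that its direction turned.

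The 2 regions called lower in LP-LP had weak signal. At chr1:165933886-165935602 3 of 8 probes were well above background on all arrays, and at chr20:738648-740339 2 of 9 were. Their differences were -0.21 (adjusted p = 0.0442) and -0.19 (adjusted p = 0.0315 from limma), and neither passed once the scan entered as a random block. Both had long probes, of 54.4 and 55.6 bases on average, and values far below the array centre in all groups. On the scanner log2 ratio LP-HP was not separate from LP-CN in the second of them, with -0.80, -0.84 and -0.79 beside -0.77, -0.77 and -0.85.

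Between LP-LP and CN-CN limma called 0 of the 807 regions in either direction, where 0.0065% of all regions were higher and 0% lower. At an unadjusted p under 0.05 there were 104 of the 807 (12.9%) and 1800 of all regions (11.7%). On the deposited values limma called 1 higher and 1 lower (0.124% each), where 0.0974% and 0.201% of all regions were. On the scanner log2 ratio the median difference was 0.05, compared with less than 0.01 in size over all regions. Without LP-LP replicate 10 it was 0.0089 (-0.0048 over all regions), and on the deposited values -0.0049 (-0.0133). It was 0.07 on the processed signals (-0.0022 over all regions) and 0.03 after loess within each array (0.0118). With 3 arrays a group and a median residual SD of 0.0766, small differences between these groups could not be detected.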

How the data were processed

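The members and lists were chosen with earlier results of these data known. The authors deposited Agilent Feature Extraction 11.0.1.1 files with median spot and background intensity per dye, processed signals corrected and scaled by that software, and a table of log2 values per probe, whose scale is not stated in it. On each array that table followed the scanner ratio Cy5 over Cy3 (Spearman's rho 0.806 to 0.869), and its medians were -0.03 to 0.02. The study's methods name median centring, quantile normalization and smoothing, and smoothing makes neighbouring probes alike.

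Probes were joined into 16174 regions, of which 16055 had at least 3 probes and 15396 of these lay on autosomes. The rule used the deposited log2 values. For the tests, background was removed from the intensities by normexp with an offset of 50 (limma 3.58.1, R 4.3.3), flagged spots were set to missing, log2(Cy5/Cy3) was median centred and quantile normalized, and probes were averaged by region as deviations from each probe's mean. Limma used all 12 arrays (8 residual degrees of freedom) and Benjamini-Hochberg adjustment at 0.05. The scripts were tested on simulated data. P-values measure the spread between arrays, which may be technical.

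Regions were named by a rule: the 8 widest gaps, the 3 highest and 3 lowest LP-HP means, the 3 with the most and the 3 with the longest probes (all with strong signal), 2 on each side of the threshold, and the 2 largest called differences per tested comparison and direction. Gene lists and cell type markers had been listed and were not used, since the files pair no probe with a gene. The given gene tables are on another assembly, and no sequence is printed. Python 3.11.15 was used for counts. Alternatives were other background corrections and normalizations, probe medians, bright probes only, other region limits, the scan as a block, and leaving out each array.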

Additional observations from a re-analysis of the deposited data

How the results depend on the processing

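With 3 arrays a group, LP-HP on a scan day of its own apart from LP-LP replicate 10, and the input channel moving too, the selection describes these arrays. No paired analysis was possible because no replicate number occurs in 2 groups. The number of regions with LP-HP highest was 1182 of 14272 with bright probes only, 736 with probe medians, 869 and 795 with region limits of 500 and 2000 bp, 793 with at least 5 probes, and 826 to 1901 when an array was left out, with the highest number without LP-LP replicate 10. Without LP-HP replicate 7, 8 or 9 it was 1315, 1260 or 1102.

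Members lower in LP-CN than in CN-CN numbered 8 on the deposited values, 6 without background correction, 0 on processed signals, 0 after loess, 166 without quantile normalization, 37 with probe medians (4 higher), 142 with bright probes, 43 and 78 with the scan as a random and a fixed block (4 higher with the latter), and 0 to 63 without an array (0 to 7 higher). Of all regions 1.35%, 0.909%, 0%, 0%, 17.7%, 3.13%, 20.4% and 5.53% were lower under the first 8 of these settings. The members' shares were 0.991%, 0.743%, 0%, 0%, 20.6%, 4.58%, 17.9% and 5.33%. Members higher in LP-LP than in LP-CN numbered 5, 9, 0, 0, 520, 136, 408 and 5 under the first 8 of these settings, in the same order, and 94 to 259 without an array. Their shares were 0.620%, 1.12%, 0%, 0%, 64.4%, 16.9%, 51.5% and 0.620%, where 0.604%, 0.637%, 0%, 0%, 36.7%, 9.00%, 38.3% and 0.292% of all regions were higher. Lower ones numbered 7 with probe medians, 0 to 16 without an array, and 0 under the other 7 settings. LP-LP against CN-CN gave 1 higher and 1 lower on the deposited values and 0 whichever array was left out. The median of all regions moved by more than 0.1 under some scalings. It was 0.12 for LP-LP minus LP-CN without quantile normalization, and with bright probes 0.18 for the same comparison and -0.15 for LP-CN minus CN-CN. The cause of these changes was not tested.

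For the 29 named regions LP-HP minus the other arrays had the same sign in all but 13 of 464 alternative values. Most of these regions were selected for high LP-HP values on the same arrays, so a kept sign follows in part from the selection. The reversals were, on processed signals, -0.014 at chr10:88436292-88437947, -0.10 at chr11:69806983-69808746, -0.28 at chr1:165933886-165935602 and -0.11 at chr20:738648-740339. After loess they were -0.083 at chr1:35522409-35524053, -0.091 at chr10:88436292-88437947, -0.0086 at chr3:142328073-142331387, -0.056 at chr15:103697971-103699582, -0.017 at chr11:69806983-69808746, -0.083 at chr1:165933886-165935602 and -0.19 at chr20:738648-740339. With probe medians they were -0.0080 at chr18:29095976-29097548 and -0.25 at chr11:69806983-69808746. The LP-LP difference at chr7:111460903-111462582 was -0.053 after loess.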

Other observations

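Outside the autosomes, all LP-HP arrays were above the other 9 in 20 of 560 regions on chromosome X (3.57%) and in 7 of 99 regions on sequence that build rn4 does not place on a chromosome (7.07%). These regions were not part of the selection and were not tested.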
